A study of Homo sapiens with 16 samples.

Results

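The mitochondrial respiratory chain and ATP synthase are built mostly from subunits that the nucleus encodes, and 78 of the 25369 genes in a table of read counts were examined here as these subunits. They were taken by symbol: the NDUFA, NDUFB, NDUFC, NDUFS and NDUFV genes of complex I, SDHA to SDHD of complex II, the UQCR genes of complex III, the ubiquitously expressed COX genes of complex IV, and every gene whose symbol starts with ATP5. This gave 36 genes for complex I, 4 for complex II, 8 for complex III, 11 for complex IV and 15 for complex V, with NDUFA4 placed in complex IV, where its product resides. The remaining 4 match by symbol alone and are kept apart. They are ATP5S and ATP5SL, which the reference annotation now calls DMAC2L and DMAC2, the pseudogene ATP5EP2, and ATP5L2.

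The counts come from stranded, polyadenylated RNA-seq of TPC1 and K1, human papillary thyroid carcinoma cell lines that express wild type p53. Cells of each line were treated for 24 h with vehicle (0.2% DMSO), 10 µM nutlin (Nutlin-3a, which releases p53 from its repressor MDM2), 25 µM GSK2830371 (an inhibitor of the phosphatase PPM1D, another p53 repressor), or both drugs at once, called the combination. With 2 libraries for each of the 8 groups there are 16 in all, and the comparisons ask what inhibiting either repressor or both does to the transcriptome of each line. TPC1 was grown in RPMI and K1, whose labels also name it GLAG-66, in DMEM, so line and medium cannot be told apart. The study's methods describe replicates in general as prepared independently, while the labels do not say how the libraries of a group were obtained, so the p values measure the spread between these libraries.

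Oxidative phosphorylation moves electrons from NADH through complex I, or from succinate through complex II, to ubiquinone, then through complex III and cytochrome c to complex IV, where oxygen is reduced. Complexes I, III and IV pump protons across the inner membrane, and complex V lets them return through a ring of c subunits whose rotation drives ATP synthesis in the F1 head. Subunits conserved from bacteria, among them those with the redox centres, are called core, and the others accessory or supernumerary. The mitochondrial genome encodes 13 further subunits, and these are not analysed here. Known activators of the nuclear genes include NRF1, the ETS family factor GABP, YY1 and the estrogen-related receptors with their PGC-1 coactivators.

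The libraries hold between 30789887 and 76648552 counts in TPC1, and in K1 between 28888686 and 37161241. TPC1 libraries are named by the numbers 1 and 3 of their columns, and those numbered 3 hold more counts in every treatment. K1 libraries are numbered 1 and 2. Values are given in this order, as CPM, the count of a gene scaled to the total of its library. CPM is a share of a library, so fewer transcripts per cell and more RNA from other genes cannot be told apart. The p53 target CDKN1A, an inhibitor of the cell cycle, had 128 and 149.8 CPM in TPC1 with DMSO and 6569 and 6689 CPM with nutlin, and 110.2 and 118 CPM against 978 and 1046 CPM in K1. MDM2, itself a p53 target, rose with nutlin, with a log2 fold change against DMSO of 4.96 (SE 0.11) in TPC1 and 3.05 (SE 0.07) in K1. Of 7 thyroid follicular markers, TSHR and NKX2-1 were under 0.1 CPM in every TPC1 library, and TSHR in every K1 library. Of 6 epithelial markers 3 were above 1 CPM in every library, with KRT8 between 299 and 832 CPM and KRT18 between 114 and 465 CPM, while CDH1 was under 0.1 CPM in all. Of 3 leukocyte markers PTPRC and CD3E were under 0.1 CPM in both lines, and CD14 was between 2.33 and 4.56 CPM in K1.

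Of the 78 genes, 76 passed the filter on low counts in both lines and were tested. The 76 had between 168 and 57055 counts in a TPC1 library and between 62 and 15352 in a K1 library. ATP5L2 and ATP5EP2, with at most 1 and 7 counts in any library, were not tested. Together the 78 genes took 0.774% to 0.903% of the counts of a TPC1 library and 0.677% to 0.714% of those of a K1 library. Their summed level was 7887 and 9025 CPM in TPC1 with DMSO, 8539 and 8808 with nutlin, 7764 and 8209.8 with GSK2830371 and 7743 and 8189.7 with the combination. The DMSO libraries of TPC1 enclosed the nutlin libraries. In K1 the sums were 6767 and 6889 CPM with DMSO, 6906 and 7139.6 with nutlin, 7060.1 and 6788 with GSK2830371 and 7079 and 6969 with the combination.

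The complexes did not all move in the same direction. In TPC1 the summed complex V level was 2752 and 3164 CPM with DMSO, 2642 and 2798 with nutlin, 2607 and 2802 with GSK2830371 and 2265 and 2477 with the combination. The summed complex IV level was 1182 and 1349 CPM with DMSO, 1466 and 1468 with nutlin, 1205 and 1226 with GSK2830371 and 1404 and 1413 with the combination. Complex V was lower and complex IV higher with the combination than with DMSO, in both cases without overlap. The ratio of the complex IV sum to the complex V sum, in which the scaling of a library cancels, was 0.429 and 0.426 with DMSO, 0.555 and 0.525 with nutlin, 0.462 and 0.437 with GSK2830371 and 0.62 and 0.571 with the combination. In K1 the ratio was 0.524 and 0.522 with DMSO, 0.545 and 0.548 with nutlin, 0.532 and 0.519 with GSK2830371 and 0.573 and 0.576 with the combination. Both lines thus had their highest ratio with the combination, above every DMSO library of the same line, and the range in K1 was narrower. The sums are dominated by the most abundant genes and were not tested.

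**Figure D1:**
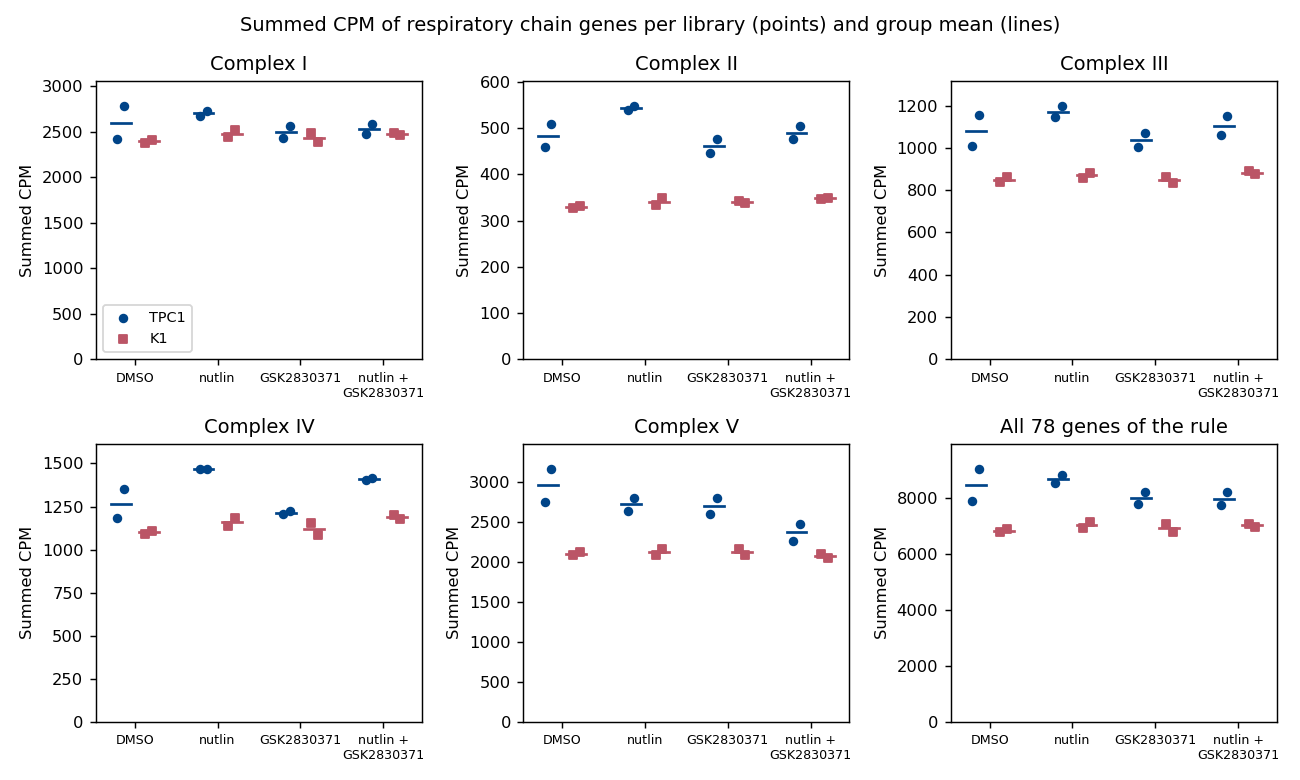
Summed CPM (y axis, from 0) of the genes of each complex and of all 78 genes in every library of TPC1 (circles) and K1 (squares), by treatment (x axis), with the group mean as a line. In TPC1 the combination libraries lie lowest for complex V, at 2265 and 2477 CPM, while those for complex IV, at 1404 and 1413 CPM, lie above both DMSO libraries.

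With nutlin in TPC1 NDUFS5, NDUFA13 and SDHC were first among the rises and ATP5G1, NDUFA6 and NDUFB10 first among the falls. Against DMSO, 23 of 76 genes rose (30.3%, where 27.3% of all 15273 genes tested rose) and 11 fell (14.5%, against 28.3% of all genes), with adjusted p values below 0.05 by the quasi-likelihood test of edgeR. This split depends on the controls, with 8 rises and 15 falls without the DMSO library 1 and 37 rises and 4 falls without the DMSO library 3. A rise past 1.5-fold was seen for 1 gene, while 17.5% of all genes passed it, and no gene fell that far. The size of change was modest: the median absolute log2 fold change was 0.227 over the 76 genes and 0.493 over all genes tested. By complex, 11 genes rose and 6 fell of 36 in complex I, 2 rose and 0 fell of 4 in complex II, 3 and 1 of 8 in complex III, 5 and 0 of 11 in complex IV, and 2 and 4 of 15 in complex V.

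The largest rise belonged to NDUFS5, an accessory subunit of the intermembrane face of complex I (chr1:39491990-39500308 in GRCh37). NDUFS5 had 74.1 and 88.5 CPM with DMSO and 125 and 133 CPM with nutlin (log2 fold change 0.70, SE 0.11, adjusted p = 5.84e-04). NDUFA13, an accessory subunit also known as GRIM-19, had 77.2 and 87.8 CPM against 113 and 115 CPM (log2 fold change 0.50, SE 0.08, adjusted p = 8.84e-04). SDHC, a membrane anchor of complex II, had 113 and 119 CPM against 159 and 157 CPM (log2 fold change 0.48, SE 0.07, adjusted p = 4.11e-04). For these 3 genes both nutlin libraries lay above both DMSO libraries. SDHA, the flavoprotein of complex II, rose too (log2 fold change 0.30, SE 0.08, adjusted p = 0.00848), while the iron-sulfur subunit SDHB was at -0.16 (SE 0.11) and did not pass. NDUFA4, a small subunit of complex IV, rose with a log2 fold change of 0.46 (SE 0.10) and adjusted p = 0.00281, and COX6C, COX6A1, COX7C and COX7A2 rose with 0.36, 0.34, 0.32 and 0.32. COX4I1 and COX5B, which were at log2 fold changes of 0.19 and 0.19, did not pass the test.

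The falls in TPC1 with nutlin were led by ATP5G1, NDUFA6 and NDUFB10. ATP5G1, which encodes subunit c of the rotor ring (chr17:46970127-46973233), had 117 and 126 CPM with DMSO and 93.1 and 86.9 CPM with nutlin (log2 fold change -0.40, SE 0.08, adjusted p = 0.00253). NDUFA6, an accessory subunit of the LYR protein family, had 63.7 and 69.8 CPM against 48.5 and 50.6 CPM (log2 fold change -0.40, SE 0.08, adjusted p = 0.00264). NDUFB10, of the membrane arm of complex I, fell with a log2 fold change of -0.39 (SE 0.11) and adjusted p = 0.0121. The catalytic beta subunit of ATP synthase, ATP5B, had 685 and 787 CPM against 531 and 571 CPM and fell (log2 fold change -0.39, SE 0.10, adjusted p = 0.00888), whereas the alpha subunit ATP5A1 was at -0.07 and did not pass. Core subunits NDUFS1 and NDUFS3 of complex I fell with log2 fold changes of -0.23 and -0.32, and UQCRFS1, the Rieske iron-sulfur protein of complex III, fell with -0.34. NDUFV1, UQCRC1 and UQCRC2 did not pass, with log2 fold changes of 0.02, -0.18 and 0.25. With the replicate number as a block, as the pairing of the TPC1 libraries allows, 36 genes rose and 18 fell. Without the nutlin library 1, or without the nutlin library 3, 15 genes passed, and 8 of the 34 calls held in every setting tried: NDUFS5, NDUFA13, SDHC, NDUFB2, NDUFA4, NDUFB1, ATP5G1 and NDUFA6.

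With GSK2830371 alone no gene passed in TPC1 in the edgeR fit with the filter on low counts and no replicate block or correction. Of the 76 genes 0 passed in that fit, where 1.87% of all genes rose and 1.64% fell, and 9 had an unadjusted p under 0.05. DESeq2 called 1, as did edgeR with no filter. With counts corrected for GC content and transcript length 1 gene rose and 3 fell. The estimates were nonetheless mostly negative: 71 of 76 genes had a log2 fold change below 0, with a median of -0.12 and a range of -0.34 to 0.14. The median over all genes tested was -0.006, and the share of all genes below 0 was not counted. In CPM, the median log2 ratio to DMSO was 0.003 between the libraries numbered 1 and -0.14 between those numbered 3. The sign was the same in both for 43 of the 76 genes. The largest was that of ATP5G1, with 117 and 126 CPM with DMSO and 103 and 95.4 CPM with GSK2830371 (log2 fold change -0.34, SE 0.08, adjusted p = 0.0577). Its libraries did not overlap, and it did not pass. The genes share their DMSO libraries, and the median was -0.003 without the DMSO library 3 and -0.23 without the DMSO library 1. With the replicate block, 16 genes fell and 0 rose, with no share over all genes to set beside these.

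With the combination in TPC1 the largest falls were of the subunit c genes ATP5G1 and ATP5G3 and the largest rises of NDUFS5, NDUFV3 and NDUFA7. Against DMSO 16 of 76 genes rose (21.1%, with 32.0% of all genes) and 15 fell (19.7%, with 32.1% of all genes). Past 1.5-fold, 2 fell (21.7% of all genes did) and 0 rose. The median absolute log2 fold change was 0.208, against 0.6 over all genes tested. Calls in a single direction were seen in complexes IV and V and among the core subunits of complex I. In complex V 5 of 15 genes fell (33.3%) and 0 rose, with a median of -0.14. In complex IV 4 of 11 rose (36.4%) and 0 fell, with a median of 0.17. The share that fell in complex V and the share that rose in complex IV were near those of all genes, 32.1% and 32.0%. In complex I 9 genes rose and 8 fell of 36, in complex II 1 rose of 4, and in complex III 2 rose and 2 fell of 8. Among the 7 core subunits of complex I, a grouping made with these values known, 3 fell and 0 rose. By this grouping the 9 rises of complex I are all of accessory subunits, as a description only. The median over all 76 genes, -0.01, depends on the controls: it was 0.15 without the DMSO library 3 and -0.10 without the DMSO library 1. The calls likewise split into 26 rises and 11 falls without the former and 11 rises and 20 falls without the latter. With the replicate block 27 genes rose and 21 fell, and with counts corrected for GC content and for transcript length 17 rose and 31 fell. Shares over all genes are not given for either setting.

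ATP5G1, ATP5G2 and ATP5G3 encode the same mature protein behind different targeting sequences, so the ring draws on all 3 genes. ATP5G1 had 117 and 126 CPM with DMSO and 62.8 and 58.2 CPM with the combination (log2 fold change -0.96, SE 0.08, adjusted p = 8.14e-06). ATP5G3 (chr2:176040986-176046438) had 234 and 270.0 CPM against 141 and 159.7 CPM (log2 fold change -0.69, SE 0.11, adjusted p = 3.81e-04). ATP5G2 had 201 and 233 CPM against 238 and 264 CPM and did not pass (log2 fold change 0.26, SE 0.10, adjusted p = 0.0545). ATP5G1 and ATP5G3 were lower and ATP5G2 higher in both libraries of the combination. ATP5G1 made up 21.2 and 20.0% of the subunit c transcripts with DMSO, 17.5 and 15.6% with nutlin, 20.5 and 17.6% with GSK2830371 and 14.2 and 12.1% with the combination. ATP5G2 made up 36.4 and 37.1% with DMSO and 53.8 and 54.8% with the combination. The sum of the 3 genes was 552 and 629 CPM with DMSO and 442 and 482 CPM with the combination, without overlap. In K1 the share of ATP5G1 was 21.4 and 21.4% with DMSO and 20.1 and 19.9% with the combination, and the sum was 506 and 497 CPM against 478 and 476 CPM. The shares and sums were not tested, and as CPM is not divided by transcript length, a share here is one of reads.

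Of the 5 subunits of the F1 head and central stalk, ATP5A1, ATP5B and ATP5C1 fell in TPC1. ATP5A1 had 522 and 581 CPM with DMSO and 369 and 398 CPM with the combination (log2 fold change -0.47, SE 0.09, adjusted p = 0.00138). ATP5B and the gamma subunit ATP5C1 fell with log2 fold changes of -0.43 (SE 0.10) and -0.42 (SE 0.11). The epsilon subunit ATP5E was at a log2 fold change of 0.27 and did not pass. Its reads can overlap the readthrough gene SLMO2-ATP5E, whose shared reads the counting leaves out.

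In complex I the largest fall was that of NDUFA9, an accessory subunit at the base of the matrix arm (chr12:4758261-4803483), with 71.1 and 78.5 CPM against 50.3 and 47.5 CPM (log2 fold change -0.56, SE 0.08, adjusted p = 2.34e-04). NDUFS1, the largest iron-sulfur subunit, had 102 and 94.2 CPM against 67.6 and 63.4 CPM (log2 fold change -0.53, SE 0.07, adjusted p = 1.96e-04). The groups do not overlap for either gene. NDUFB6, of the membrane arm, fell with a log2 fold change of -0.53 (SE 0.08), and NDUFS3 with -0.51 (SE 0.09). The core subunit NDUFV1 was at a log2 fold change of -0.10 and did not pass. In complex III UQCRFS1 fell with a log2 fold change of -0.55 (SE 0.11) and UQCRC1 with -0.33 (SE 0.09), while UQCRC2 was at 0.11 and did not pass.

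The largest rises with the combination in TPC1 were of accessory subunits. NDUFS5 had 74.1 and 88.5 CPM with DMSO and 110.1 and 121 CPM with the combination (log2 fold change 0.56, SE 0.11, adjusted p = 0.00182). NDUFV3, an accessory subunit of the NADH-oxidizing module, had 33.5 and 39.1 CPM against 48.9 and 54.3 CPM (log2 fold change 0.56, SE 0.11, adjusted p = 0.00142). NDUFA7, an accessory subunit of the matrix arm, had 36.5 and 41.8 CPM against 50.1 and 57.1 CPM (log2 fold change 0.51, SE 0.11, adjusted p = 0.00357). In each case the groups do not overlap. COX6A1 and NDUFA4 of complex IV rose with log2 fold changes of 0.47 (SE 0.10) and 0.39 (SE 0.10), and UQCRB of complex III with 0.45 (SE 0.11). SDHA, SDHB, COX4I1 and COX5B were at log2 fold changes of 0.15, -0.17, 0.13 and 0.19, and did not pass. Of the 31 calls 19 held in every setting tried, 8 of them rises and 11 falls.

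**Figure D2:**
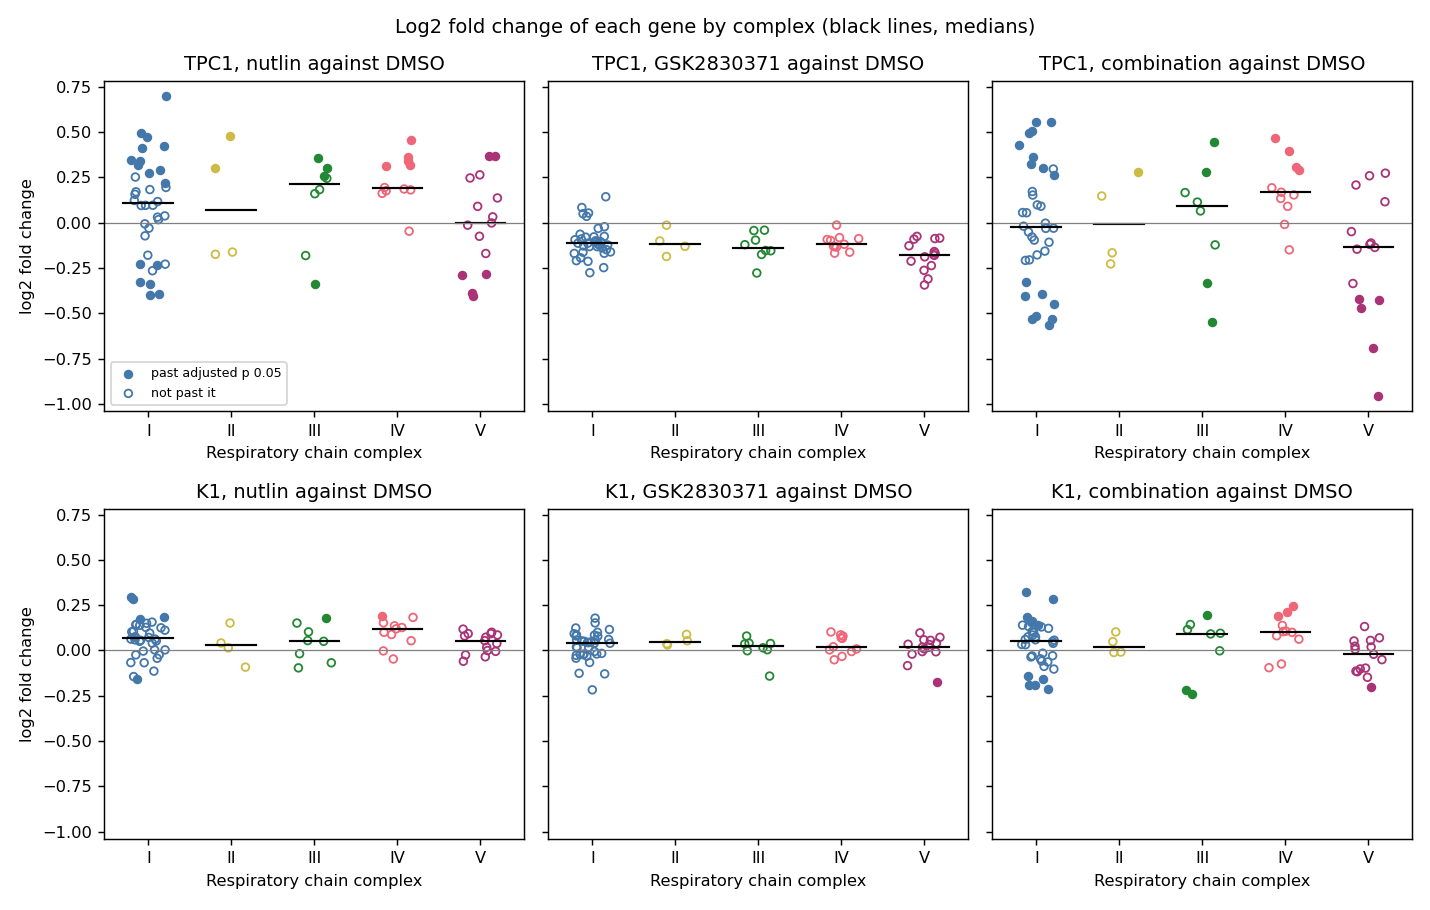
Log2 fold change against DMSO (y axis) of each tested gene, by complex (x axis), for nutlin, GSK2830371 and the combination in TPC1 (top) and K1 (bottom). Filled points passed an adjusted p of 0.05, open points did not, and black lines are medians. In TPC1 with the combination, complex V reaches a log2 fold change of -0.96 with no filled point above 0, and complex IV has no filled point below 0.

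Adding GSK2830371 to nutlin in TPC1 lowered 6 of the 76 genes and raised 0, where 12.9% of all genes fell and 13.2% rose. ATP5G1 had 93.1 and 86.9 CPM with nutlin and 62.8 and 58.2 CPM with the combination (log2 fold change -0.55, SE 0.08, adjusted p = 0.00168). ATP5G3 fell with a log2 fold change of -0.41 (SE 0.11) and adjusted p = 0.0213. ATP5A1 had 499 and 526 CPM against 369 and 398 CPM (log2 fold change -0.40, SE 0.09, adjusted p = 0.0117). COX7B, a small subunit of complex IV, fell with a log2 fold change of -0.31, NDUFB6 with -0.31 and NDUFS1 with -0.30. For all 6 the libraries of the groups do not overlap, which adds no support, as the 6 were called from these same libraries. Of the 76 estimates 60 were below 0, with a median of -0.09, where the median over all genes tested was 0.013. The share of all genes below 0 was not counted. ATP5B, which had fallen with nutlin, was at a log2 fold change of -0.04. With the replicate block 2 genes rose and 29 fell, with no share over all genes to set beside these. Without the nutlin library 1, or without the nutlin library 3, only ATP5G1 passed, 2 genes did without the combination library 1, and 11 did without the DMSO library 3. In the interaction, which asks whether the change with both drugs departs from the sum of the changes with each, 0 genes passed in edgeR and in DESeq2, 1 had an unadjusted p under 0.05, and 3.84% of all genes were above and 4.74% below additivity. With the replicate block 3 genes were above it and 2 below, with the correction for GC content and length 0 and 8, and with both 2 and 22. Shares over all genes are not given for these settings.

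In K1 NDUFS5, NDUFV3 and COX6C led the rises with nutlin, and NDUFA6 fell. Nutlin raised 6 of 76 genes (7.89%, with 13.5% of all 15900 genes tested) and lowered 1 (1.32%, with 16.6%). The median absolute log2 fold change was 0.0779, against 0.215 over all genes tested. NDUFS5 had 116 and 114 CPM with DMSO and 131 and 149 CPM with nutlin (log2 fold change 0.30, SE 0.06, adjusted p = 0.00332). NDUFV3 had 44 and 49.1 CPM against 58.6 and 54 CPM (log2 fold change 0.28, SE 0.07, adjusted p = 0.00663). COX6C of complex IV had 60.8 and 62.7 CPM against 68.2 and 71.5 CPM (log2 fold change 0.19, SE 0.06, adjusted p = 0.0221). None of these 3 overlapped between the groups. Whether the response to nutlin differed between the lines was not tested. NDUFB3, UQCRB and NDUFA13 rose with log2 fold changes of 0.19, 0.18 and 0.17. NDUFA6 fell with a log2 fold change of -0.16 (SE 0.06) and adjusted p = 0.0446. The count was 1 without the DMSO library 1, 3 without the DMSO library 2 and 2 without the nutlin library 2, and 16 with the correction for GC content and length.

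GSK2830371 in K1 raised ATP5SL, matched by symbol only, from 46.5 and 49.5 CPM to 56.5 and 53.3 CPM (log2 fold change 0.20, SE 0.06, adjusted p = 0.0366). It lowered ATP5F1, the b subunit of the peripheral stalk of ATP synthase, from 151 and 147 CPM to 127 and 136 CPM (log2 fold change -0.17, SE 0.05, adjusted p = 0.0374). No other gene passed, where 8.38% of all genes rose and 10.8% fell. Neither call was stable: 0 genes passed without either DMSO library, without the GSK2830371 library 1, without the combination library 2 or in a fit of the 2 groups alone, 1 did without the combination library 1, and the log2 fold change of ATP5F1 was 0.02 with the correction for GC content and length. ATP5G1, the gene with the largest fall in TPC1, had 109.7 and 109 CPM and a log2 fold change of 0.03.

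With the combination in K1 the largest rises were of the accessory subunits NDUFV3, NDUFA5 and COX6C, and the falls were led by UQCRFS1 and UQCRC1. In all, 10 genes rose (13.2%, with 21.0% of all genes) and 8 fell (10.5%, with 22.2%). Complex I had 6 rises and 5 falls, complex III 1 rise and 2 falls, complex IV 3 rises, complex V 1 fall and complex II none. Of the 7 core subunits of complex I, again grouped with the values known, 4 fell and 0 rose. NDUFV3 had 44 and 49.1 CPM with DMSO and 59 and 60.4 CPM with the combination (log2 fold change 0.33, SE 0.07, adjusted p = 0.0016). NDUFA5, an accessory subunit of the matrix arm, had 26 and 26.7 CPM against 31 and 34.7 CPM (log2 fold change 0.29, SE 0.08, adjusted p = 0.00855). COX6C had 60.8 and 62.7 CPM against 73.4 and 76.4 CPM (log2 fold change 0.25, SE 0.06, adjusted p = 0.00294). None of these groups overlap. UQCRFS1 had 76.4 and 81.2 CPM against 71.6 and 64.8 CPM (log2 fold change -0.24, SE 0.07, adjusted p = 0.00919). UQCRC1, a large matrix-side subunit of complex III known as core protein 1, had 173 and 175 CPM against 154 and 152 CPM (log2 fold change -0.22, SE 0.05, adjusted p = 0.00311).

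ATP5G1 in K1 had 108 and 106 CPM with DMSO and 95.9 and 94.8 CPM with the combination (log2 fold change -0.20, SE 0.05, adjusted p = 0.00699). NDUFS1 and NDUFV1 fell with log2 fold changes of -0.19 and -0.14, and NDUFA4 rose with 0.21. ATP5A1, ATP5B, SDHA, SDHB, UQCRC2, COX4I1 and COX5B did not pass, with log2 fold changes between -0.11 and 0.12. The split of the calls depends on the scaling, with 18 rises and 5 falls by library size alone and 17 rises and 8 falls after the correction for GC content and length. The total was 5 without the combination library 2, 10 without the combination library 1, 6 without the DMSO library 1, 8 without the DMSO library 2 and 10 in DESeq2. COX6C, NDUFV3 and UQCRC1 were among the calls that held in every setting tried.

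Against nutlin, the combination in K1 lowered 2 genes, ATP5G1 among them (log2 fold change -0.19, SE 0.05, adjusted p = 0.0284), and raised 0, where 6.53% of all genes fell and 5.89% rose. ATP5G1 thus fell on adding GSK2830371 to nutlin in both lines. In K1 0 genes passed without the nutlin library 2 or without either combination library, and 1 did without either DMSO library. The interaction in K1 passed for 0 genes in edgeR and in DESeq2, with 6 at an unadjusted p under 0.05 and 5.24% and 2.83% of all genes above and below additivity.

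**Figure D3:**
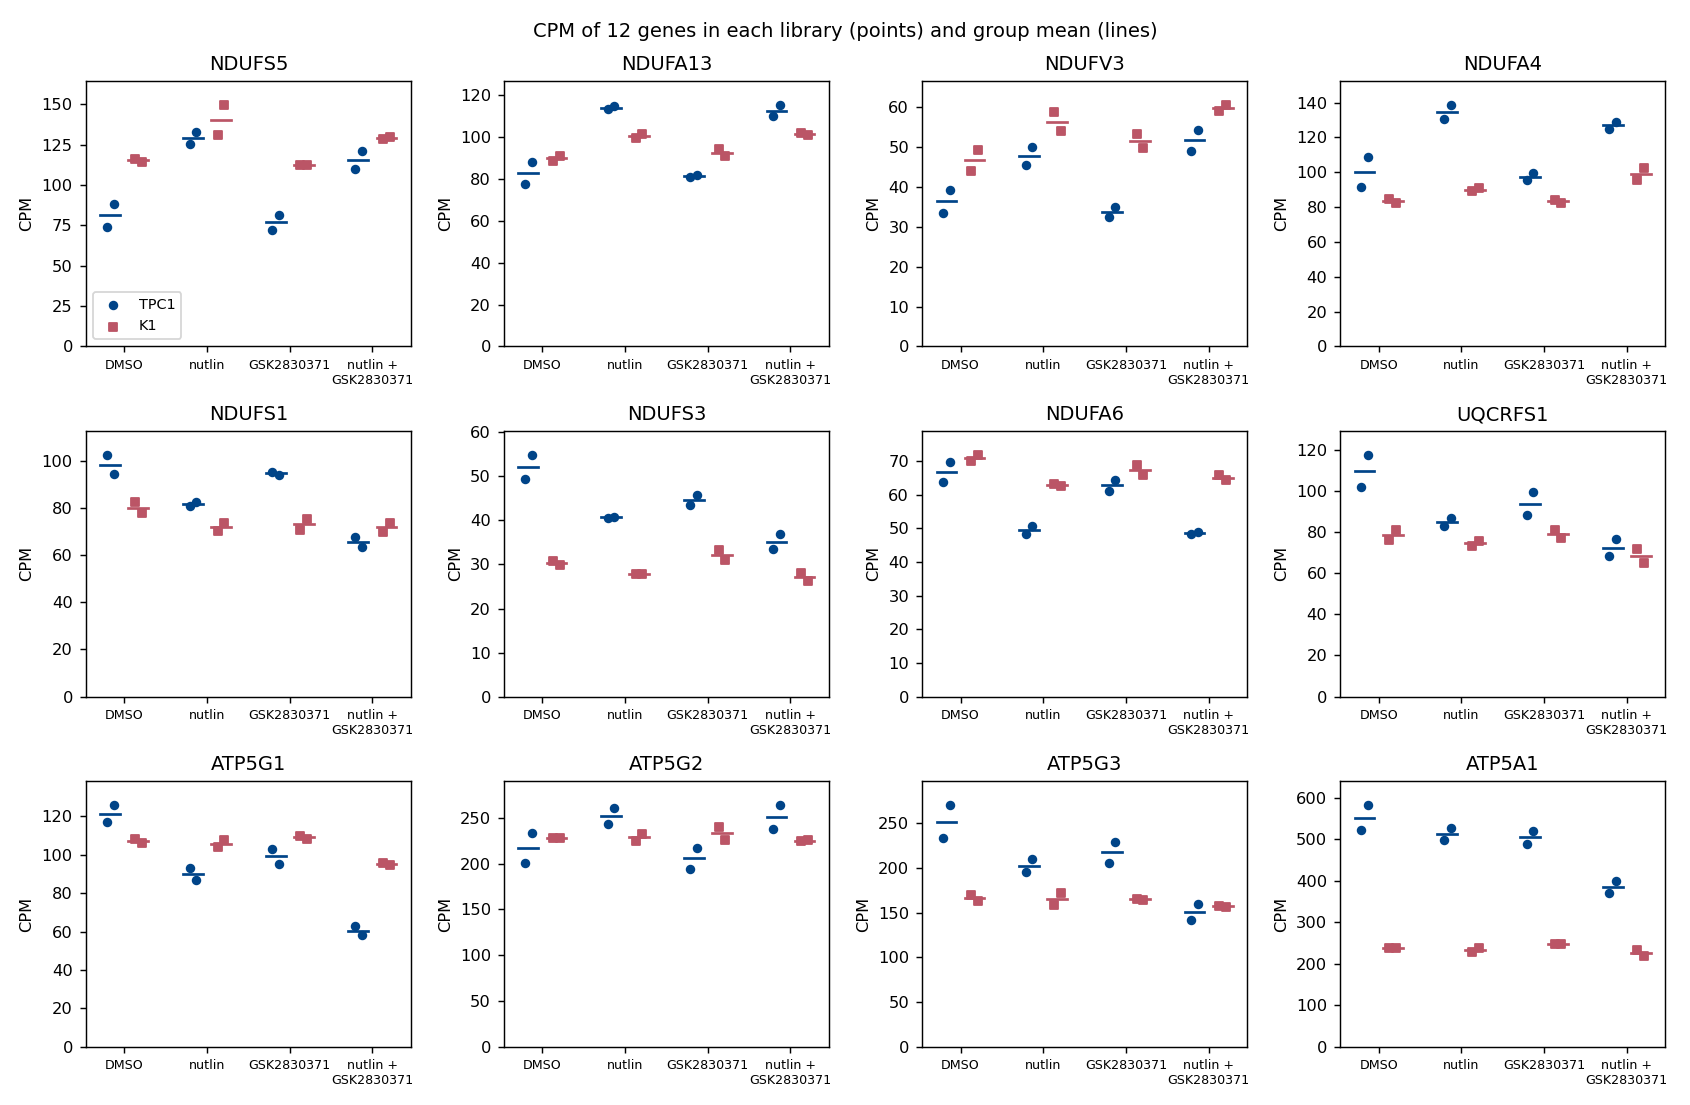
CPM (y axis, from 0) of 12 genes in every library of TPC1 (circles) and K1 (squares), by treatment (x axis), with the group mean as a line. ATP5G1 goes from 117 and 126 CPM with DMSO to 62.8 and 58.2 CPM with the combination in TPC1. The K1 libraries lie between 94.8 and 109.7 CPM and are lowest with the combination.

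The calls of each line rest on libraries that the other did not use. With the combination, 6 of the 76 genes rose in both lines: NDUFV3, NDUFA4, UQCRB, NDUFA13, NDUFB5 and COX7A2. These are 37.5% of the rises in TPC1 and 60.0% of those in K1, and the same shares over all genes tested in both lines were 48% and 70.0%. Another 6 fell in both: ATP5G1, UQCRFS1, NDUFS1, NDUFS3, NDUFA6 and UQCRC1. They are 40.0% of the falls in TPC1 and 75.0% of those in K1, with 55.4% and 77.3% over all genes, so each share lay below that of all genes. No gene of the 76 was called in opposite directions, as 382 of all 14509 genes were. With nutlin, NDUFS5, NDUFV3, COX6C, UQCRB and NDUFA13 rose and NDUFA6 fell in both lines. The rises in both are 21.7% of those in TPC1 and 83.3% of those in K1, with 37.6% and 73.3% over all genes. NDUFA6 is 9.09% of the falls in TPC1 and the only fall in K1, with 49.7% and 80.9% over all genes.

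**Figure D4:**
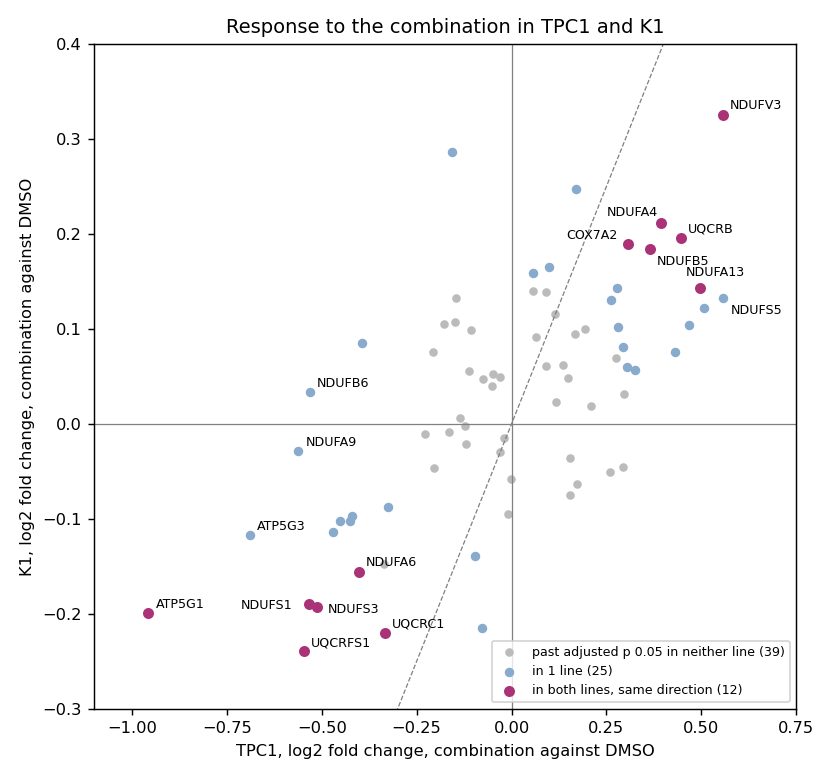
Log2 fold change with the combination against DMSO in TPC1 (x axis) and K1 (y axis) for the 76 tested genes, with the dashed line marking equal change and the scale of the y axis enlarged. The 12 genes called the same way in both lines are named, as are ATP5G3, NDUFS5, NDUFA9 and NDUFB6. The points spread further along the TPC1 axis, from a log2 fold change of -0.96 to 0.56, than along the K1 axis, from -0.24 to 0.33.

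The promoters of the genes called in both lines were read to show what sequence they share. RefSeq windows (GRCh38.p14, 250 bases before to 50 after the start) were found for 62 of the 78 genes, and exact letters were searched on either strand. The NRF1 core GCGCATGCG occurs in 10 of the 62 windows (16.1%) and in 2.10% of all 27305. YY1 (AAGATGGCG) occurs in 8 (12.9%, with 1.85% of all), the ETS motif (CCGGAAGT) in 9 (14.5%, with 4.44%), the ERR motif (TCAAGGTCA) in 1 (1.61%, with 0.359%) and the SP motif (GGGGCGGGG) in 9 (14.5%, with 16%). These motifs do not contain each other. Of the 62 windows, 24 hold one of these motifs other than SP. Of the 12 genes called in both lines 9 have a window, and 4 of these windows hold such a motif. They follow 5′ to 3′ on the strand of the gene, with the motif in capitals. NDUFA13, at chr19:19515975-19516274 on the plus strand, rose in both lines and holds the ETS letters at base 241. NDUFA6, at chr22:42090723-42091022 on the minus strand, fell in both and holds the YY1 letters at base 276. NDUFS1, at chr2:206159395-206159694 on the minus strand, fell in both and holds the ETS letters on the opposite strand at base 93. UQCRC1, at chr3:48609597-48609896 on the minus strand, fell in both and holds the YY1 letters at base 274. NDUFA13, which rose, and NDUFS1, which fell, thus hold the same letters, and a match of letters describes the window only.
NDUFA13: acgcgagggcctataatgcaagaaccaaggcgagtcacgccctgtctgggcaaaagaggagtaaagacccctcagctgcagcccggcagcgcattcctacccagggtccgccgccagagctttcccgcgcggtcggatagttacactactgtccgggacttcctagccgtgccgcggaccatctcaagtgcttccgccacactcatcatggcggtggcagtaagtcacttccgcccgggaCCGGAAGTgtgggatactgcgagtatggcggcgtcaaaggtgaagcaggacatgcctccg
NDUFA6: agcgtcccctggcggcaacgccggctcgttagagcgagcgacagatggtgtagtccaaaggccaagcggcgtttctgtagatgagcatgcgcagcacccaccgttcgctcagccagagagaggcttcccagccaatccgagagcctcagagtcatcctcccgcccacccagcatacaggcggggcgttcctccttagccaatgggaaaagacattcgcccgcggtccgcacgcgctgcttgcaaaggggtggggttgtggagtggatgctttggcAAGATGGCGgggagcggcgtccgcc
NDUFS1: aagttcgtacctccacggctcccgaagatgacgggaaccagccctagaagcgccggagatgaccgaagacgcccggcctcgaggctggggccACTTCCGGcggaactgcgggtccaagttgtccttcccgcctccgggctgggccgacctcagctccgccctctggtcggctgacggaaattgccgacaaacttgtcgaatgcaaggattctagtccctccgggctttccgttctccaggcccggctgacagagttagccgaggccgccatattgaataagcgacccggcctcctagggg
UQCRC1: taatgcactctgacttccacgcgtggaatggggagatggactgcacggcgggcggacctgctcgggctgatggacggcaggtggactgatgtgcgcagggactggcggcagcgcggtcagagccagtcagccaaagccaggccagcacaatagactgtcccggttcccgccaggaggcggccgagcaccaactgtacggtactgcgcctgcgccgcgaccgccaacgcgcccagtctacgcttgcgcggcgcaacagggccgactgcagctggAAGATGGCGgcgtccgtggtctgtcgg

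The response to the combination itself differed between the lines for 13 of the 76 genes. In a fit of all 16 libraries the log2 fold change in K1 was above that in TPC1 for 8 genes (10.5%, with 18.9% of all 16738 genes) and below it for 5 (6.58%, with 19.7%), and 1 was above by more than 1.5-fold (11.9% of all genes). That gene was ATP5G1, at a log2 difference of 0.73 (SE 0.10) and adjusted p = 2.38e-05, the fall being larger in TPC1. ATP5G3 followed at a log2 difference of 0.55 (SE 0.14) with adjusted p = 0.00496, and NDUFB6 at 0.54 (SE 0.12) with adjusted p = 0.0015. NDUFA9 was at a log2 difference of 0.51 (SE 0.10). In K1 NDUFA9 had 63.9 and 65.9 CPM with DMSO and 64.3 and 65.8 CPM with the combination, and NDUFB6 33.4 and 30.8 against 35.2 and 32. The K1 groups overlap for NDUFB6, and those of NDUFA9 nearly coincide. On the other side NDUFS5 was at a log2 difference of -0.45 (SE 0.15), NDUFA7 at -0.41 (SE 0.14) and COX6A1 at -0.39 (SE 0.13), each having risen in TPC1. ATP5G1, ATP5G3, NDUFA9 and NDUFB6 held in every setting tried. The split of the 13 did not: it was 19 above and 2 below by library size alone, 27 and 3 after the correction for GC content and length, 17 and 14 with the replicate block, 19 and 1 without the TPC1 DMSO library 1, and 5 and 20 without the TPC1 DMSO library 3. The total was 6 without either K1 DMSO library and 7 without the K1 combination library 2.

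In DMSO the alpha and beta subunits of ATP synthase and most subunits of complexes II and III were lower in K1 than in TPC1. NDUFS4, NDUFB4 and ATP5J2 were higher in K1. K1 was lower than TPC1 for 35 genes (46.1%, with 33.0% of all 16738 genes) and higher for 12 (15.8%, with 34.7%). Past 1.5-fold 17 were lower and 1 higher, with 21.2% and 25.0% of all genes. The median log2 difference was -0.16 over the 76 genes, and it was -0.03 without the TPC1 DMSO library 3. In complex II SDHA, SDHB and SDHD were lower in K1 and SDHC did not pass, with a median log2 difference of -0.69 over the 4 genes. In complex III 5 of 8 genes were lower and 1 higher, in complex IV 5 of 11 and 1, in complex V 8 of 15 and 3, and in complex I 12 of 36 and 7.

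The largest difference was that of ATP5S, with 6.13 and 5.95 CPM in TPC1 and 2.13 and 2.37 CPM in K1 (log2 fold change -1.43, SE 0.16, adjusted p = 6.06e-07). Among subunits of the complexes it was ATP5A1, with 522 and 581 CPM against 239 and 238 CPM (log2 fold change -1.22, SE 0.09, adjusted p = 1.94e-09). NDUFB8, a membrane arm subunit of complex I, had 111 and 135 CPM against 57.3 and 55.2 CPM (log2 fold change -1.14, SE 0.10, adjusted p = 1.84e-08). For each of the 3 the lines lie far apart relative to the spread of their libraries. SDHA had 189 and 199 CPM against 103 and 104 CPM (log2 fold change -0.91, SE 0.08, adjusted p = 1.52e-08), and SDHB 90.7 and 113 against 72.4 and 75 (log2 fold change -0.47, SE 0.10, adjusted p = 4.73e-04). ATP5B was at a log2 fold change of -0.88, UQCRC2 at -0.70, COX4I1 at -0.67, UQCRFS1 at -0.49, NDUFS1 at -0.30, NDUFV1 at -0.28, NDUFA4 at -0.27 and ATP5G1 at -0.19, all lower in K1. UQCRC1 and COX5B, at log2 fold changes of -0.15 and 0.08, did not pass.

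Higher in K1 were, first, NDUFS4, an accessory subunit whose loss impairs complex I assembly, with 16.9 and 20.1 CPM in TPC1 and 27.1 and 29 CPM in K1 (log2 fold change 0.59, SE 0.11, adjusted p = 1.15e-04). NDUFB4 had 96.7 and 115 CPM against 162 and 156 CPM (log2 fold change 0.57, SE 0.09, adjusted p = 2.77e-05). ATP5J2, the f subunit of ATP synthase, had 49 and 60.8 CPM against 76.6 and 83.1 CPM (log2 fold change 0.53, SE 0.12, adjusted p = 0.00127). The lines do not overlap for any of the 3. The count of ATP5J2 leaves out reads shared with the readthrough gene ATP5J2-PTCD1. Of the 47 differences 33 held in every setting tried. After the combination, the ATP5A1 level in TPC1, 369 and 398 CPM, was still above every K1 library, whereas ATP5G1 in TPC1, at 62.8 and 58.2 CPM, was below every K1 library.

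**Figure D5:**
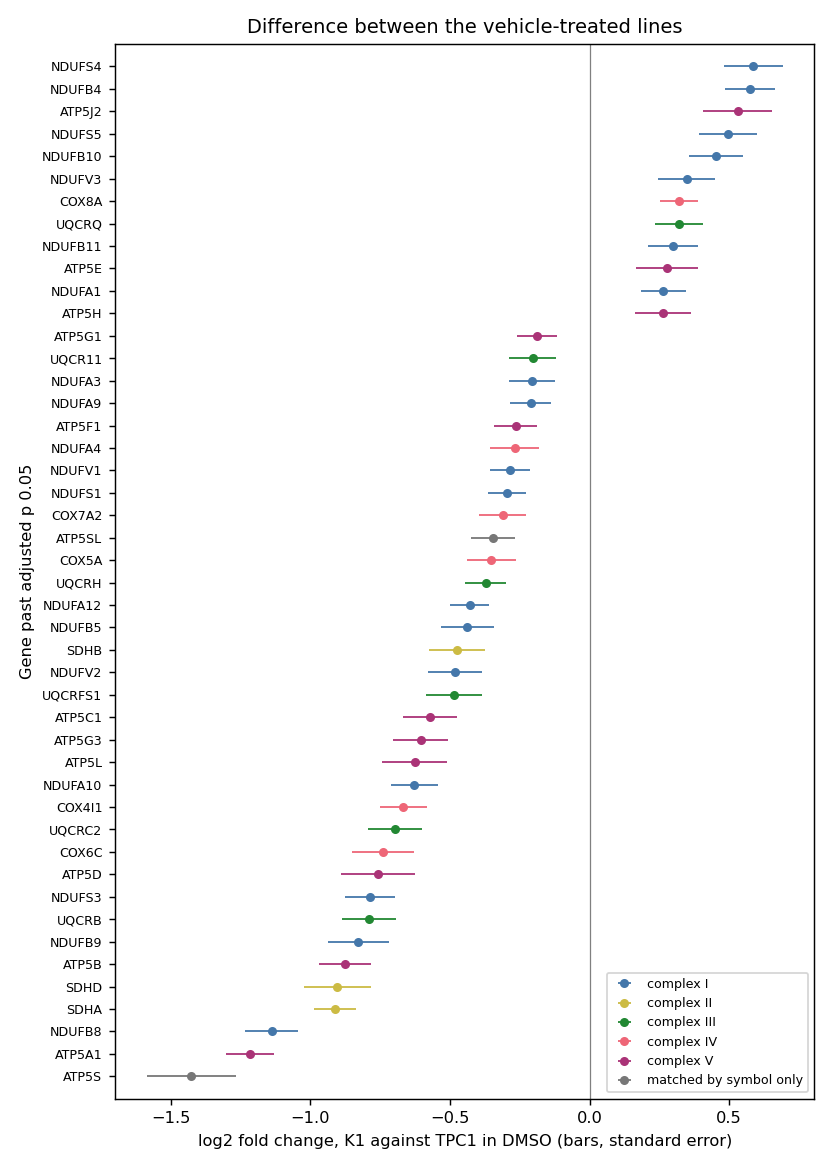
Log2 fold change of K1 against TPC1 in DMSO (x axis, points with standard error) for 46 of the genes past an adjusted p of 0.05 (y axis), coloured by complex. The 12 genes that are higher in K1 reach a log2 fold change of 0.59, and the lower ones reach -1.22 for ATP5A1 and -1.43 for ATP5S.

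Genes that act on the respiratory chain from outside were counted from lists. The counts are to be read against all genes tested, of which 27.3% rose and 28.3% fell with nutlin and 32.0% and 32.1% with the combination in TPC1, 13.5% and 16.6% with nutlin and 21.0% and 22.2% with the combination in K1, and 34.7% were higher and 33.0% lower in K1 in DMSO. Of 16 regulators of mitochondrial gene expression 15 were tested in TPC1, and 1 rose and 10 fell with the combination (median log2 fold change -0.61, and 0.0035 over all genes tested). PPRC1 and PPARGC1B, of the PGC-1 family, fell with log2 fold changes of -1.82 (SE 0.08) and -1.6 (SE 0.25), MYC fell with -1.09 (SE 0.10), and the nuclear receptor ESRRA rose with 0.60 (SE 0.07). With nutlin 1 rose and 11 fell, with PPRC1 at a log2 fold change of -1.47, MYC at -1.37 and NRF1 at -1.09. In K1 1 of 16 rose and 8 fell with either nutlin or the combination, and MYC, at log2 fold changes of -1.0 and -0.77, was the gene that fell past 1.5-fold. In DMSO 11 of the 16 were lower in K1 and 2 higher. MYC had 310.0 and 332 CPM in TPC1 and 59.3 and 72.6 CPM in K1, and TFAM, which packages and transcribes the mitochondrial genome, 113 and 98.4 against 43.4 and 45. Whether these levels bear on the subunits was not tested.

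Of 45 assembly factors 9 rose and 18 fell with nutlin in TPC1, and 8 rose and 18 fell with the combination, against 32.0% and 32.1% of all genes. FOXRED1, COA1 and NDUFAF4 fell with log2 fold changes of -1.12, -0.99 and -0.78 with the combination. C6orf57, also called SDHAF4, rose with a log2 fold change of 1.5, SURF1, needed for complex IV assembly, with 1.17, and ATPAF2, which acts on the F1 head, with 0.91. SURF1 had 16.2 and 18.9 CPM with DMSO, 31.6 and 31.7 with nutlin and 37.1 and 39.2 with the combination. In K1 6 assembly factors rose and 11 fell with the combination, against 21.0% and 22.2% of all genes, none past 1.5-fold. In DMSO 18 were lower and 11 higher in K1, among them COX15, which makes heme A for complex IV, with 84.4 and 84 CPM in TPC1 and 23.7 and 25.3 CPM in K1 (log2 fold change -1.78, SE 0.08, adjusted p = 3.96e-12), and the copper chaperone COX17, higher at 1.01.

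Subunits and carriers outside the symbol rule followed no single direction, and the counts over these short lists are set against 32.0% of all genes rising and 32.1% falling with the combination in TPC1 and 21.0% and 22.2% in K1. The list of 8 genes also holds SDHAP1 and ATPIF1, which are neither subunits nor carriers. With the combination in TPC1, 1 of the 8 rose and 3 fell. COX7A2L, a supercomplex factor, rose with a log2 fold change of 0.73. CYCS, the mobile carrier cytochrome c, CYC1, the cytochrome c1 subunit of complex III, and NDUFAB1, the mitochondrial acyl carrier protein, fell with log2 fold changes of -0.61, -0.59 and -0.49. CYCS had 169 and 177 CPM with DMSO, 91 and 93 with nutlin and 103 and 115 with the combination. In K1 2 of the 8 rose and 1 fell. Of 7 tissue-restricted isoforms 2 could be tested in TPC1, and NDUFA4L2, a paralog of NDUFA4, rose with a log2 fold change of 1.69 with the combination, from 2.36 and 2.77 CPM to 7.84 and 8.29 CPM. TCA cycle enzymes had 0 rises and 7 falls of 14 with the combination in TPC1, led by FH at a log2 fold change of -0.85, and 1 rise and 5 falls in K1. Of 10 mitochondrial chaperones and proteases 4 rose and 5 fell in TPC1, with HSPE1 and HSPD1 at log2 fold changes of -1.59 and -1.04, and 2 rose and 3 fell in K1. Of 6 mitochondrial genes linked to p53 4 rose and 2 fell with the combination in TPC1, and 3 rose and 1 fell of 5 tested in K1. FDXR, an electron donor to mitochondrial P450 enzymes, had 23.9 and 27.8 CPM with DMSO and 493 and 517 CPM with the combination in TPC1, and 23.1 and 20.9 CPM against 155 and 155 CPM in K1. SCO2, a complex IV assembly factor often named as a p53 target, did not pass with nutlin in either line (log2 fold change -0.05 in TPC1 and 0.06 in K1) and fell with the combination in TPC1 (log2 fold change -0.71, SE 0.09, adjusted p = 7.22e-05).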

How the data were processed

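RNA-seq counts of 16 libraries of 2 cell lines were used as deposited. The authors aligned reads with TopHat2 2.0.13 to GRCh37/hg19, removed low mapping quality, and produced raw counts per gene with HTSeq 0.6.1, counting reverse strand. Reads that fall on overlapping genes are thereby left out or assigned to the gene that covers them, which bears on ATP5E, ATP5J2 and NDUFC2, where readthrough genes overlap.

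Genes above 0.1 CPM in at least 2 libraries were kept, TMM scaling was applied, and edgeR 4.0.16 (R 4.3.3) fitted the 8 libraries of each line jointly, or all 16 for comparisons between lines, with quasi-likelihood tests (two-sided). P values were adjusted by Benjamini-Hochberg over all genes tested, 15273 in TPC1, 15900 in K1 and 16738 in both, and a gene is said to rise or fall at an adjusted p under 0.05, at any fold change unless 1.5-fold is stated. A fold past 1.5 refers to the estimate. Whether the libraries of called genes overlap is read from the same values as the test, and the share over all genes was not counted. SE is the standard error of a log2 fold change. DESeq2 1.42.0 was an alternative, as were other scalings and filters, a replicate block, a spline correction for GC content and transcript length, fits of the compared groups alone, and leaving out each library. "Every setting tried" means all of these. The code was tested on simulated data.

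The TPC1 columns are numbered 1 and 3 and the labels 1 and 2, so the columns numbered 3 were assigned by group only. Deviations from group means of TPC1 libraries with the same number correlated at 0.435 to 0.591 in all 6 pairs of treatments (12308 genes), and the numbers were taken to pair them. In K1 these were -0.318 to 0.331 (12544 genes), and they were not. Named genes are the 3 largest rises and falls of a comparison and a chosen set of central subunits. A few others are named where a count is small. Values of some genes that enter the counts are not reported here. The genes and lists were chosen with earlier results of these data known, and the comparisons of treatments in a line share their control libraries. Median counts of the tested genes were 4090.5 in TPC1 and 2606 in K1.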

Additional observations from a re-analysis of the deposited data

Results flagged for a closer look

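The response to the combination differed between the lines for 13 of the 76 tested genes by the interaction of line and combination. Values are log2 fold changes in K1 minus those in TPC1. ATP5G1 was at 0.73, ATP5G3 at 0.55 and NDUFB6 at 0.54, each with a fall in TPC1. NDUFS5 was at -0.45, NDUFA7 at -0.41 and COX6A1 at -0.39, each with a rise in TPC1. Line and growth medium cannot be told apart in these differences. The TPC1 DMSO libraries enter all of them, and the summed level of all 78 genes was 7887 and 9025 CPM in those libraries, while it was 6767 and 6889 CPM in K1.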

How the results depend on the processing

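The counts below are of the 76 genes past an adjusted p of 0.05. Shares over all genes under these settings are not given, so a change in a count is not read as particular to these genes. With the replicate block, which uses the pairing of TPC1 libraries, the count in TPC1 went from 34 to 54 for nutlin, from 0 to 16 for GSK2830371, from 31 to 48 for the combination, from 6 to 31 for the combination against nutlin and from 0 to 5 for the interaction. For the response of K1 against TPC1 it went from 13 to 31. In K1, where the libraries share only a number, the block gave 0 for GSK2830371 and 0 for the combination against nutlin. After the correction for GC content and length the count in TPC1 was 4 for GSK2830371, 48 for the combination, 29 for the combination against nutlin and 8 for the interaction. It was 16 for nutlin and 5 for GSK2830371 in K1, and 30 for the response between lines. With block and correction together the counts were 53, 16, 58, 50 and 24 in TPC1, in the order nutlin, GSK2830371, combination, combination against nutlin and interaction. They were 15, 4 and 0 in K1 for nutlin, GSK2830371 and the combination against nutlin, and 45 for the response between lines. In K1 ATP5F1 with GSK2830371 changed sign, to 0.0156 with the correction and 0.0155 with the block too. With no filter the count was 1 for GSK2830371 and 11 for the combination against nutlin in TPC1, and 1 for the combination against nutlin and 1 for the interaction in K1. With library size alone it was 1 for the combination against nutlin in K1 and 21 for the response between lines, and with filterByExpr 20 for the latter. DESeq2 gave 1 for GSK2830371 in TPC1, and 1 for GSK2830371, 10 for the combination and 1 for the combination against nutlin in K1. Fits of the compared groups alone gave 0 for GSK2830371 and 1 for the combination against nutlin in K1, and leaving out the genes matched by symbol only or overlapping a readthrough gene gave 1 for GSK2830371 in K1. The cause was not tested.

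Leaving out each library in turn gave 15 to 41 for nutlin, 0 for GSK2830371, 28 to 37 for the combination, 1 to 11 for the combination against nutlin and 0 for the interaction in TPC1. In K1 the ranges were 1 to 9, 0 to 2, 5 to 19, 0 to 2 and 0 to 1. Between lines they were 38 to 48 in DMSO and 6 to 25 for the response. Where an arm is left with 1 library, that library was taken to vary as the remaining groups do.

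Of the values of named genes under alternatives, 3361 kept direction and side of the threshold, 130 lost the call, 111 gained it and 2 changed sign. The genes are shorter than others, with a median transcript of 783.5 bases against 3198 in the TPC1 fit. With 2 libraries a group, small changes cannot be told from no change.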
